A study of Homo sapiens with 42 samples.

Results

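GINS1, GINS2, GINS3, GINS4 and CDC45 encode the proteins that join the MCM2-7 ring to form the replicative helicase, and their mRNA was followed here over 14 groups of A375 cells. The 5 genes were chosen by name as the partners of one assembly, out of 19775 genes measured, and each was read from its probe set with a single gene symbol and the highest mean log2 signal over all 42 arrays. These probe sets were 206102_at for GINS1 (chromosome 20), 221521_s_at for GINS2 (chromosome 16), 45633_at for GINS3 (chromosome 16), 211767_at for GINS4 (chromosome 8) and 204126_s_at for CDC45 (chromosome 22). After Nutlin or daunorubicin in cells with control siRNA, all 5 genes fell. The signals of GINS2, GINS4 and CDC45 became dim, so that the size of their fall is not well measured. The GINS3 signal came close to the dim limit with Nutlin. None of the 5 passed the test downward when p53 had been targeted by siRNA.

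Before S phase, origins are licensed by loading inactive rings of MCM2 to MCM7 onto DNA. At the start of S phase, kinases bring CDC45 and GINS to these rings, and the resulting complex of CDC45, MCM and GINS unwinds DNA at the fork. Transcription of the subunits is driven by E2F factors in proliferating cells, and in arrested cells it is held down by RB family proteins and the DREAM complex, which p53 can engage through the CDK inhibitor CDKN1A (p21).

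A375 is a human melanoma cell line. Its cells received for 48 hours an siRNA to p53, to CDT1 or to BRCA1, or the GL2 siRNA, which targets firefly luciferase and serves as control, and 27000 cells were then exposed to an agent for 26 hours. The agents were 650 nM MLN4924, an inhibitor of the NEDD8-activating enzyme and so of cullin-RING ubiquitin ligases, 5 uM Nutlin, which keeps MDM2 from p53, 100 nM daunorubicin, a topoisomerase II poison, and 0.065% DMSO, the vehicle. The 14 groups of 3 arrays were p53 siRNA with MLN4924, Nutlin, daunorubicin and a second and a first set of DMSO arrays, CDT1 siRNA with MLN4924 and DMSO, BRCA1 siRNA with MLN4924 and DMSO, and GL2 siRNA with MLN4924, Nutlin, daunorubicin and a second and a first DMSO set. All of the groups thus carried an siRNA, and no untransfected cells were analysed here. The labels do not tie a DMSO set to a treatment, so both sets of the same siRNA, 6 arrays, were used as control. Whether the 3 arrays of a group came from separate cultures is not stated, so a p-value here covers the spread among arrays, and that spread may be technical only.

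Levels are log2 signals of arrays centred to the same median gene. A level under 5.00, the log2 of the median signal of all probe sets on all arrays (31.9), is called dim here, since the deposited table holds no detection calls. A gene was called in a comparison at an adjusted p under 0.05 (limma, Benjamini-Hochberg over 19775 genes) and a size of 1.5-fold or more. The first count of called genes in a comparison stands beside the share of all genes called there, in the same direction or, where no gene was called, in either.

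The siRNAs were checked on their targets. CDT1 fell by 2.17 ± 0.26 (SE) under CDT1 siRNA and BRCA1 fell by 2.89 ± 0.51 under BRCA1 siRNA, while CDKN1A fell by 2.09 ± 0.12 under p53 siRNA, whose own target was not analysed here. CDKN1A, a p53 target, rose under Nutlin by 2.08 in p53 siRNA cells, against 3.26 in GL2 cells, and under daunorubicin by 2.94 in p53 siRNA cells, against 2.76 in GL2 cells. There were libraries that went against their labels. The library labelled GL2 MLN4924 replicate 3 had BRCA1 at 4.70, against 7.95 and 8.24 in the other GL2 MLN4924 libraries, and the library labelled BRCA1 MLN4924 replicate 3 had BRCA1 at 8.18, against 4.93 and 5.28 in its group. The library of p53 siRNA with daunorubicin, replicate 1, had a 5' to 3' signal ratio of 0.0118 at ACTB, a sign of degraded RNA, and these 3 libraries are called doubted below. Of 9 melanocyte lineage markers 6 had a mean signal above the median of all signals, SOX10 running from 104.1 to 2200.4, while the pigment genes PMEL, MLANA and TYRP1 did not. Among markers of other cells, 3 of 8 for epithelium, 4 of 8 for fibroblasts and 2 of 6 for leukocytes were above it. KRT18, in the epithelial list, ran from 1855.9 to 4041.4, and COL1A1 and LUM, in the fibroblast list, reached 223.2 and 733.6. PTPRC, EPCAM, CDH1 and COL1A2 were among those below it. Taken alone, these lists do not settle the cell type.

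Promoter windows from RefSeq (GRCh38.p14) were held for GINS1, GINS2, GINS3 and CDC45, 4 of the 5 genes, and are shown because the genes moved together in the comparisons below. Each line ends 15 bases after the start site and runs on the gene's own strand, and capitals mark 3 motifs searched on both strands, E2F octamers (TTTCCCGC, TTTCGCGC, TTTGCCGC or TTTGGCGC), GGCGGGA, and CCAAT, which NF-Y binds.
GINS1, chr20:25407508-25407687, plus strand: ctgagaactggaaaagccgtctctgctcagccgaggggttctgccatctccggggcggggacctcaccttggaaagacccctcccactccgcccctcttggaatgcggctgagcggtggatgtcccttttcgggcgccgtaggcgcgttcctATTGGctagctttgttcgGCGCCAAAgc
GINS2, chr16:85688940-85689119, minus strand: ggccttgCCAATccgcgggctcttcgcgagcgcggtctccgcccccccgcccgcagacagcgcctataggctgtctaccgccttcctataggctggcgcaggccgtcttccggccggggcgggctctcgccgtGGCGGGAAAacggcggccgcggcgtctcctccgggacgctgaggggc
GINS3, chr16:58392306-58392485, plus strand: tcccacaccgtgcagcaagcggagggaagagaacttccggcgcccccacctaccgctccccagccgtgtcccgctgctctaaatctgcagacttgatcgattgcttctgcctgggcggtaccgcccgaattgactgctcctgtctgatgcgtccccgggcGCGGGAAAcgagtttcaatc
CDC45, chr22:19479755-19479934, plus strand: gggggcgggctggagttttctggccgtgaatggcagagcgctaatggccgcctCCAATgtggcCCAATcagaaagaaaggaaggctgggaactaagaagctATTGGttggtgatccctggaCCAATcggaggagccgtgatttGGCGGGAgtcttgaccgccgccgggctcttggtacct

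With the start site as base 1, an E2F octamer lay at bases -31 to -24 in GINS2, at bases -5 to 3 in GINS3 and at bases 6 to 13 in GINS1. The CDC45 window, the first of 3 in the table, held none. GGCGGGA, which was added after the windows had been read, lay at bases -32 to -26 in GINS2, overlapping the octamer there, and at bases -22 to -16 in CDC45. CCAAT lay in GINS1 and GINS2 and at 4 places in CDC45. Of 35116 promoter windows of 300 bases in the same table, 3.31% held an E2F octamer, 15.4% GGCGGGA and 34.6% CCAAT. These matches are letters in a window, not shown sites of binding.

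GINS1 (PSF1) is the subunit that, in yeast, links GINS to DNA polymerase epsilon. Its level was 6.37, 6.44 and 6.34 in GL2 cells with Nutlin and 7.03, 7.18 and 6.71 with daunorubicin, against a lowest value of 10.20, a median of 10.56 and a highest of 10.77 in the 6 DMSO arrays. Both drug groups lay far under every DMSO array, yet stayed above the dim limit. With p53 siRNA it was 10.59, 10.51 and 10.67 with Nutlin, and 11.44, 10.73 and 10.65 with daunorubicin, against 10.68 to 10.94 in the 6 DMSO arrays (median 10.83). The daunorubicin arrays, the first of them the doubted library, overlapped these controls, and the Nutlin arrays lay just under them. With MLN4924 the levels were 11.31, 11.45 and 11.44 in p53 siRNA cells, the highest mean of all 14 groups, and 10.25, 10.31 and 9.41 in GL2 cells, the last value from a doubted library. The p53 siRNA arrays with MLN4924 had the lowest median gene of all before centring (5.63 to 5.71). As deposited, their mean GINS1 signal was 2086.0, against 2160.2 in p53 siRNA cells with daunorubicin, a group with a doubted library. CDT1 siRNA cells had 9.29, 9.50 and 9.32 with MLN4924 and 9.50, 9.50 and 9.73 with DMSO, and BRCA1 siRNA cells had 9.47, 9.53 and 10.26 with MLN4924 and 9.75, 9.70 and 9.78 with DMSO. These 4 groups came next above the GL2 Nutlin and daunorubicin groups in order of mean, and among them neighbours overlapped.

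GINS2 (PSF2) is a further subunit of the GINS tetramer, and its signal was close to lost in both drug groups of GL2 cells. In GL2 cells its level was 1.26, 1.78 and 0.89 with Nutlin and 1.96, 3.94 and 2.29 with daunorubicin, against 9.06 to 9.20 in the 6 DMSO arrays (median 9.16). As deposited, these were signals of 2.7, 3.9 and 2.0 with Nutlin and 4.3, 17.2 and 6.0 with daunorubicin, against 549.7 to 599.7 with DMSO. Every array of both drugs was dim, and daunorubicin replicate 2 stood above the other 5. With p53 siRNA the level was 9.20, 9.02 and 9.16 with Nutlin, and 9.50, 8.84 and 8.89 with daunorubicin, against 9.28 to 9.50 with DMSO (median 9.38). Of these drug arrays only the first with daunorubicin, the doubted library, was within the range of the controls, and the others lay under it. The p53 siRNA cells with MLN4924 were again the highest group, at 9.71, 9.77 and 9.84, above every other array. As deposited, without centring, they were not the highest, at a mean signal of 674.1, against 703.7 in the second p53 DMSO set. GL2 cells with MLN4924 had 8.38, 8.53 and 7.67, under all 6 GL2 DMSO arrays. Under BRCA1 siRNA the level was 7.37, 7.42 and 8.22 with MLN4924 and 7.91, 7.80 and 7.99 with DMSO. CDT1 siRNA cells had 8.36, 8.60 and 8.49 with MLN4924 and 8.69, 8.52 and 8.90 with DMSO. These arrays lay under the GL2 DMSO arrays and above the BRCA1 siRNA arrays, with group means above that of GL2 cells with MLN4924.

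GINS3 (PSF3) is the third subunit of the tetramer. Its level in GL2 cells was 5.20, 4.54 and 4.89 with Nutlin and 5.35, 5.33 and 5.18 with daunorubicin, against 7.26 to 7.52 with DMSO (median 7.37). The Nutlin group was dim on average and the daunorubicin group was not, and neither overlapped the DMSO arrays. GINS3 was also the gene with 2 high groups in p53 siRNA cells, at 8.59, 8.70 and 8.73 with MLN4924 and 8.99, 7.92 and 8.07 with daunorubicin, against 7.26 to 7.44 with DMSO (median 7.37). All 6 of these arrays were above every DMSO array, and the first daunorubicin value, the highest, came from the doubted library. With Nutlin the p53 siRNA cells had 7.47, 7.20 and 7.29, within or near the range of their controls. The remaining 10 groups, this one included, ran from a mean of 6.80 ± 0.11 (SD, n = 3), in CDT1 siRNA cells with MLN4924, to 7.41 ± 0.11 in the GL2 cells of DMSO set 1, and each overlapped its neighbour in this order.

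GINS4 (SLD5) completes the GINS tetramer. In GL2 cells its level was 2.90, 4.04 and 3.60 with Nutlin and 4.36, 4.69 and 3.93 with daunorubicin, against 6.06 to 7.02 with DMSO (median 6.68). All drug arrays were dim and under all controls. The GL2 DMSO sets themselves lay apart, the second set at 6.93, 6.92 and 7.02 and the first at 6.30, 6.45 and 6.06. In p53 siRNA cells the level was 6.93, 7.19 and 7.39 with MLN4924, 5.74, 5.99 and 5.46 with Nutlin and 5.10, 6.18 and 6.65 with daunorubicin, against 6.10 to 6.96 with DMSO (median 6.32). The MLN4924 arrays overlapped these controls by a single array, and all 3 Nutlin arrays were under them. The lowest daunorubicin value, 5.10, came from the doubted library. From the highest group to p53 siRNA with Nutlin, 12th in order of mean, every group overlapped the next.

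CDC45, which joins the MCM ring together with GINS, was at a low extreme in both drug groups of GL2 cells and within a narrow range in all others. Its level was 0.41, 0.66 and 0.56 with Nutlin and 0.92, 1.04 and 0.77 with daunorubicin in GL2 cells, against 7.07 to 7.63 with DMSO (median 7.28). As deposited, the signals were 1.5, 1.8 and 1.6 with Nutlin and 2.1, 2.3 and 2.1 with daunorubicin, against 133.2 to 193.5 with DMSO. Signals this low carry no measure of how much mRNA was left. The other 12 groups had means within 6.66 ± 0.29 and 7.88 ± 0.14 (SD, n = 3), from BRCA1 siRNA with DMSO to p53 siRNA with MLN4924. In p53 siRNA cells the values were 7.94, 7.72 and 7.99 with MLN4924, 7.06, 7.13 and 7.27 with Nutlin and 7.43, 7.34 and 7.27 with daunorubicin, against 6.57 to 7.49 with DMSO (median 7.31). Only the MLN4924 arrays lay wholly above these controls.

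**Figure D1:**
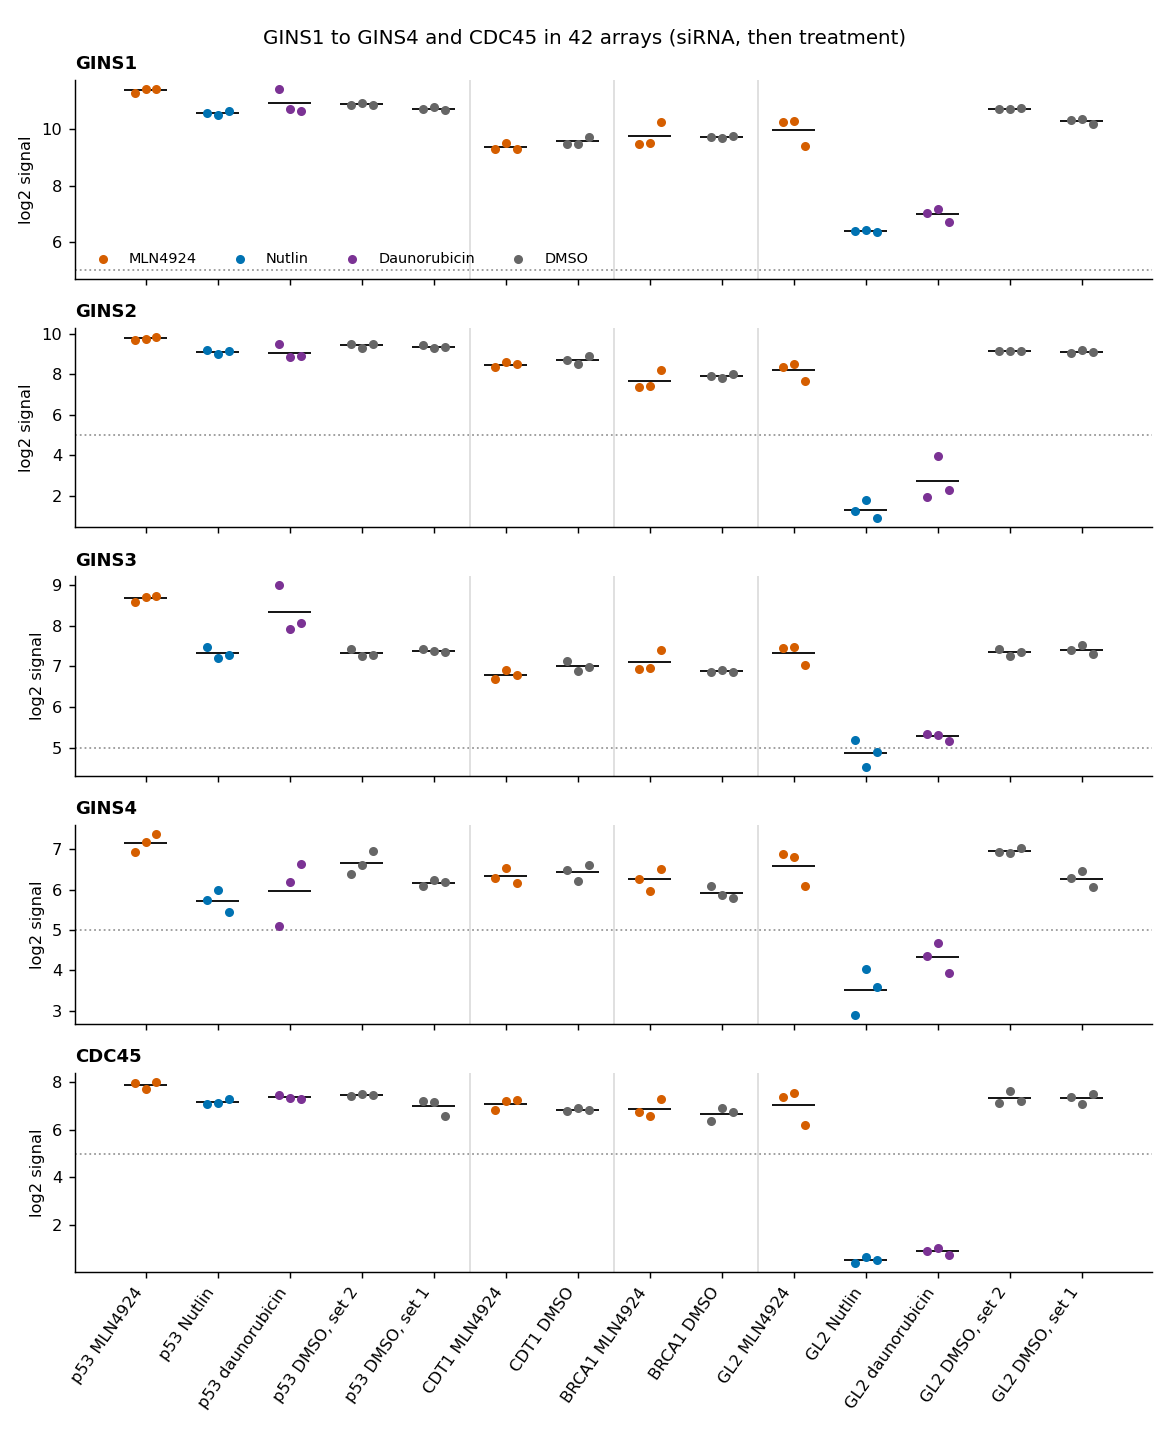
Level of each gene (log2 signal, arrays centred on their median gene) in all 42 arrays, with 1 point per array, a bar at the mean of each group of 3 and a dotted line at 5.00, below which a level is called dim. In every panel GL2 cells with Nutlin and GL2 cells with daunorubicin sit lowest, and p53 siRNA cells with MLN4924 have the highest mean. As deposited, without centring, that group had the highest mean signal for CDC45 but not for GINS2 or GINS4. For GINS1 and GINS3, p53 siRNA cells with daunorubicin, a group with a doubted library, were then higher.

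Nutlin lowered all 5 genes in GL2 cells, and 10.8% of all genes were called lower in this comparison. GINS2 fell by 7.84 ± 0.26 (log2, SE), CDC45 fell by 6.76 ± 0.20, GINS1 fell by 4.14 ± 0.17, GINS4 fell by 3.10 ± 0.24 and GINS3 fell by 2.50 ± 0.16. The adjusted p ran from 1.1e-21 for CDC45 to 1.2e-11 for GINS4, and no drug array overlapped a control array. The median change of the 5 genes was -4.14, against 0.02 over all genes. Ranked from the most lowered of 19775 genes, GINS2 came 1st and CDC45 4th, GINS1 was at rank 76, GINS4 at 145 and GINS3 at 206. Since GINS2, GINS4 and CDC45 were dim under the drug, their sizes rest on low signals, those of GINS2 and CDC45 near the bottom of the scale. With 16 added to each signal the changes were -5.08 for GINS2 (rank 9), -3.90 for GINS1 (rank 47), -3.44 for CDC45 (rank 72) and -2.10 for GINS4 (rank 184). GINS3, which was near the dim limit, then changed by -2.03 (rank 191). With the arrays scaled as deposited, where the median gene changed by 0.19 and not 0.02, all 5 were still called. The 5' to 3' ratio at ACTB was 0.697 to 0.732 in these Nutlin arrays and 0.727 to 0.769 in the daunorubicin arrays, against 0.806 or more in every DMSO array. It was 0.721 to 0.821 in p53 siRNA cells with Nutlin and 0.649 and 0.727 in the other daunorubicin replicates of p53 siRNA cells, where these falls were not seen, and its part in the result was not tested. In bulk RNA, fewer cells in S phase and less of these mRNAs per cell cannot be told apart.

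Daunorubicin lowered the same 5 genes in GL2 cells, where 11.4% of all genes were called lower. GINS2 fell by 6.42 ± 0.26, CDC45 fell by 6.40 ± 0.20, GINS1 fell by 3.55 ± 0.17, GINS4 fell by 2.29 ± 0.24 and GINS3 fell by 2.10 ± 0.16 (adjusted p from 7.5e-21 for CDC45 to 8.1e-09 for GINS4). GINS2 and CDC45 ranked 1st and 2nd of all genes, and GINS1, GINS4 and GINS3 were at ranks 87, 217 and 247. With 16 added to each signal GINS2 was at rank 3, CDC45 at rank 56 and GINS1 at rank 60. This comparison shares its DMSO arrays with that of Nutlin. The 2 drugs were therefore set against each other directly, and of the 5 genes GINS2 alone passed, at 1.42 ± 0.30 lower with Nutlin than with daunorubicin (adjusted p = 0.0058), in a comparison that called 1.22% of genes lower. That call was lost without GL2 daunorubicin replicate 2 (-0.81) or GL2 Nutlin replicate 3 (-1.21), and with 16 added to each signal (-0.34).

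Other probe sets of the same genes moved less. For GINS2, 243136_at fell by 3.15 ± 0.41 with Nutlin and fell by 2.99 ± 0.41 with daunorubicin in GL2 cells, whereas 1557595_at fell by 1.35 ± 0.31 with Nutlin and stood at 0.24 ± 0.31 with daunorubicin. For GINS3, 218719_s_at fell by 1.37 ± 0.18 with Nutlin and by 1.20 ± 0.18 with daunorubicin. For GINS4, 235029_at fell by 2.36 ± 0.33 with Nutlin and by 1.56 ± 0.33 with daunorubicin, 1554356_at, a dim probe set, changed by -0.99 ± 0.39 with Nutlin without passing and fell by 1.41 ± 0.39 with daunorubicin, and 240778_at, also dim, passed with neither. GINS1 and CDC45 had a single probe set. These probe sets were looked at after the main values were known, and which transcripts they report was not tested.

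Under Nutlin in p53 siRNA cells none of the 5 genes was called, in a comparison that called 1.15% of all genes in either direction. CDC45 changed by -0.06 ± 0.20 (95% interval -0.47 to 0.35), GINS3 by -0.04 ± 0.16, GINS1 by -0.23 ± 0.17, GINS2 by -0.27 ± 0.26 and GINS4 by -0.68 ± 0.24 (adjusted p = 0.11). The interval of the GINS4 change, -1.18 to -0.18, left out 0, and GINS4 was called when the 3 doubted libraries were left out of the fit (adjusted p = 0.015) and against the second DMSO set alone (-0.92). The difference between the changes in p53 siRNA and GL2 cells was tested itself and passed for all 5 genes, with 7.05% of all genes higher by this test. It was 7.57 ± 0.37 for GINS2, 6.70 ± 0.28 for CDC45, 3.91 ± 0.23 for GINS1, 2.47 ± 0.22 for GINS3 and 2.42 ± 0.35 for GINS4 (adjusted p of at most 4.4e-06). The sizes for GINS2, GINS4 and CDC45 rest on dim signals in GL2 cells. With 16 added to each signal the differences were 4.84 for GINS2, 3.39 for CDC45, 1.54 for GINS4 and 3.70 for GINS1.

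Daunorubicin in p53 siRNA cells gave 1 call among the 5 genes, GINS3 upward, at 0.97 ± 0.16 (adjusted p = 2.1e-05), where 6.52% of all genes were called higher. Without the doubted libraries GINS3 changed by 0.64 and was still called, while it was not called when only the compared groups entered the fit or with a replicate block within control sets. CDC45 changed by 0.14 ± 0.20, GINS1 by 0.12 ± 0.17, GINS2 by -0.32 ± 0.26 and GINS4 by -0.44 ± 0.24, and none of these passed. GINS4 was called, at -0.78, without p53 daunorubicin replicate 3. Without the doubted libraries GINS4 changed by -0.0017, GINS1 by -0.13 and GINS2 by -0.53 (limma adjusted p = 0.18), and none of these passed. The difference from GL2 cells passed for all 5 genes, against 11.6% of all genes called higher, at 6.54 ± 0.28 for CDC45, 6.10 ± 0.37 for GINS2, 3.68 ± 0.23 for GINS1, 3.07 ± 0.22 for GINS3 and 1.85 ± 0.35 for GINS4. With 16 added to each signal it was 4.44 for GINS2, 3.56 for CDC45 and 1.38 for GINS4, all dim with daunorubicin in GL2 cells.

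Under MLN4924 in GL2 cells only GINS2 of the 5 genes was called, lower by 0.95 ± 0.26 (adjusted p = 0.0057), with 7.06% of all genes called lower, and this call was lost without the library labelled GL2 MLN4924 replicate 3 (-0.69). As deposited, without centring, GINS1 was called as well (-0.71). After centring GINS1 changed by -0.53 ± 0.17 (adjusted p = 0.014), under 1.5-fold, CDC45 by -0.27 ± 0.20, GINS3 by -0.06 ± 0.16 and GINS4 by -0.02 ± 0.24. Without replicate 3 these were -0.24 for GINS1, 0.14 for CDC45, 0.08 for GINS3 and 0.23 for GINS4, so that 3 of the 4 changed sign. Set directly against Nutlin in GL2 cells, all 5 genes were higher with MLN4924, from 2.45 ± 0.18 for GINS3 to 6.88 ± 0.30 for GINS2, as were 18.1% of all genes. Against daunorubicin they were higher by 2.04 ± 0.18 for GINS3 to 6.13 ± 0.23 for CDC45, as were 19.3% of all genes. With 16 added to each signal, which weighs dim signals less, the differences from daunorubicin were 3.79 for GINS2 and 3.18 for CDC45, and those from Nutlin 4.13 and 3.18.

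MLN4924 raised 3 of the 5 genes in p53 siRNA cells, against 17.8% of all genes called higher. GINS3 rose by 1.32 ± 0.16 (adjusted p = 4.4e-08), GINS4 by 0.75 ± 0.24 (adjusted p = 0.015) and CDC45 by 0.67 ± 0.20 (adjusted p = 0.0075). GINS1 changed by 0.58 ± 0.17, just under 1.5-fold, and GINS2 by 0.38 ± 0.26. The size depended on the scaling of the arrays, because the median gene changed by 0.20 after centring and by -0.22 as deposited. As deposited, GINS3 (0.90) was the only gene of the 5 called, and GINS4 and CDC45 changed by 0.34 and 0.25. The control set mattered as well. Against the first DMSO set alone GINS4 (0.99), CDC45 (0.91) and GINS1 (0.66) were called beside GINS3. Against the second set alone GINS4 changed by 0.51 and CDC45 by 0.43, and GINS3 was the only call. The call of CDC45 was lost without replicate 3 of the first p53 DMSO set (0.57) and that of GINS4 without p53 MLN4924 replicate 3 (0.64). The difference from GL2 cells passed for GINS3 (1.38 ± 0.22), GINS2 (1.34 ± 0.37), GINS1 (1.11 ± 0.23) and CDC45 (0.94 ± 0.28), with 6.96% of all genes called higher, and did not for GINS4 (0.77 ± 0.35). Without GL2 MLN4924 replicate 3 it was 1.07 for GINS2 and 0.53 for CDC45, and neither passed, and the call of CDC45 was also lost without p53 MLN4924 replicate 1 (0.92) or 3 (0.89).

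Within p53 siRNA cells, MLN4924 stood above Nutlin for GINS4 (1.44 ± 0.28), GINS3 (1.36 ± 0.18), GINS1 (0.81 ± 0.19) and CDC45 (0.73 ± 0.23), where 22.2% of all genes were called higher, and GINS2 did not pass (0.65 ± 0.30). Against daunorubicin, GINS4 alone passed (1.19 ± 0.28), with 20.0% of all genes called higher. Without p53 daunorubicin replicate 1, GINS1 (0.71), GINS2 (0.91) and GINS3 (0.68) passed as well. In CDT1 siRNA and BRCA1 siRNA cells none of the 5 genes was called under MLN4924, while 10.6% and 16.9% of all genes were called in either direction. The changes lay between -0.22 (GINS2) and 0.27 (CDC45) in CDT1 siRNA cells, and between -0.23 (GINS2) and 0.34 (GINS4) in BRCA1 siRNA cells. Without the doubted BRCA1 MLN4924 replicate 3 the change was -0.51 for GINS2, -0.24 for GINS1 and -0.02 for CDC45, against 0.01 for GINS1 and 0.20 for CDC45 with it. The differences of these changes from that in GL2 cells passed for none of the genes, against 1.22% of all genes for CDT1 siRNA and 1.86% for BRCA1 siRNA.

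The siRNAs themselves changed the genes under DMSO. BRCA1 siRNA lowered GINS2 by 1.24 ± 0.26 (adjusted p = 0.0013), GINS1 by 0.78 ± 0.17 (adjusted p = 0.0012) and CDC45 by 0.65 ± 0.20 (adjusted p = 0.025), 3 of the 5 genes, with 4.37% of all genes called lower. GINS3 changed by -0.50 ± 0.16, under 1.5-fold, and GINS4 by -0.70 ± 0.24 (adjusted p = 0.053). Against the first DMSO set alone GINS2 was the only call, and that of CDC45 was lost without any of 4 single libraries, BRCA1 DMSO replicates 1 and 3, GL2 first DMSO replicate 3 and GL2 second DMSO replicate 2 (from -0.69 to -0.49). CDT1 siRNA lowered GINS1 by 0.95 ± 0.17 (adjusted p = 0.00016), where 3.58% of all genes were called lower, and the other 4 changed by -0.49 to -0.17 without passing. With a replicate block within control sets, none of the 5 genes was called for BRCA1 siRNA or for CDT1 siRNA. Under p53 siRNA none of the 5 was called, with 3.98% of all genes called in either direction, and the largest estimate was 0.30 ± 0.14 for GINS1. Without the doubted libraries GINS1 had a limma adjusted p of 0.0010, still under 1.5-fold. GINS2 ran from 9.28 to 9.50 in p53 siRNA cells with DMSO and from 9.06 to 9.20 in GL2 cells, so small changes are not excluded. The second and first DMSO sets of GL2 cells differed for none of the 5 genes by the same test (0.941% of all genes), nor did those of p53 siRNA cells (0.278%). Even so, GINS4 stood 0.69 ± 0.28 higher and GINS1 0.44 higher in the second GL2 set. In p53 siRNA cells GINS4 and CDC45 each stood 0.48 higher in the second set and GINS1 0.15 higher. In each of these cases no array of a set overlapped the other set. The share of all genes for which this held was not determined, so it is not read as particular to these genes.

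**Figure D2:**
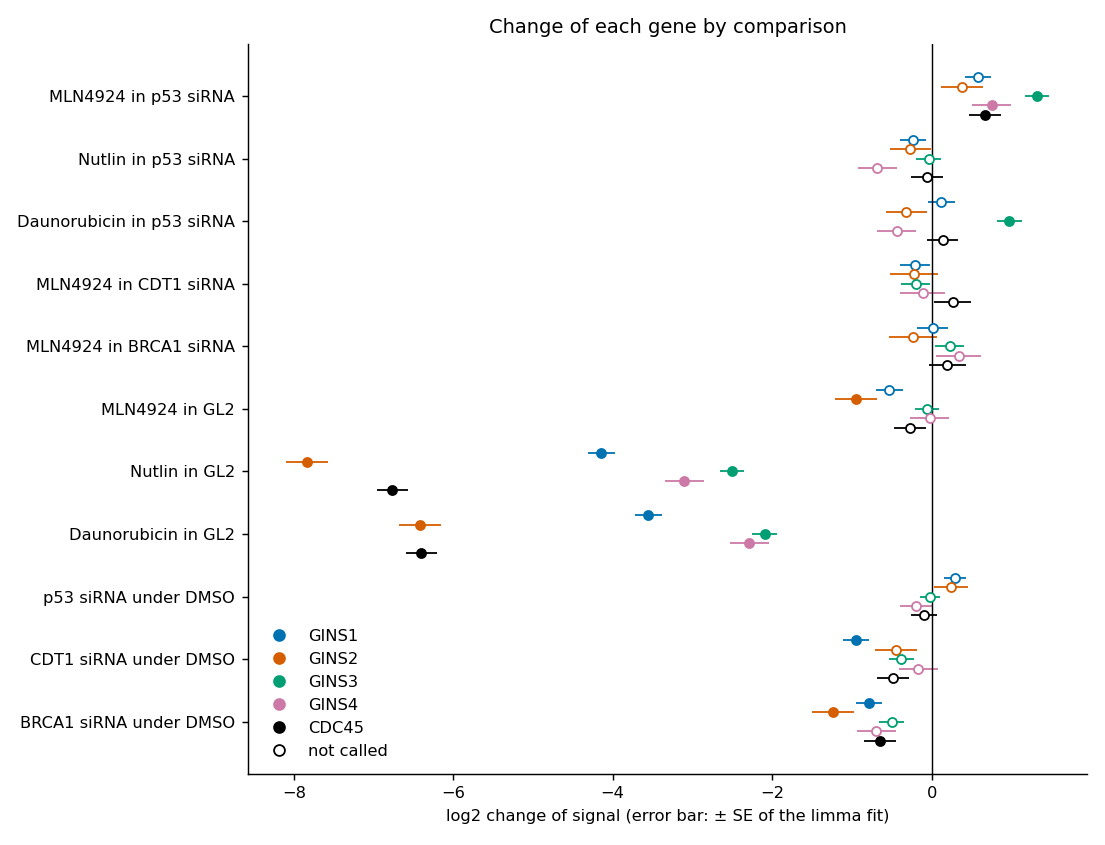
Change of each gene (log2, with the SE of the limma fit) in 11 comparisons with DMSO or with GL2 siRNA, filled where the gene was called. The 10 points under Nutlin and daunorubicin in GL2 cells lie between -7.84 and -2.10, and all other points lie between -1.24 and 1.32.

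The 5 subunits did not move by equal amounts. Each gene's log2 signal was set against the mean of the other 4 within each array, and drug arrays were set against their 6 DMSO controls by a two-sided exact permutation test, over 20 tests of 5 genes and 4 comparisons. With 3 against 6 arrays the smallest p possible is 0.0238, which is 0.0366 after adjustment, and 13 of the 20 tests reached it. The 5 tests of a comparison are tied, because each gene is also part of the mean that the others are set against. A deep fall of 1 gene thus makes the others appear to lose less, and the 13 are not separate findings. In GL2 cells GINS2 fell further than the rest, with a difference of -3.71 with Nutlin and -2.83 with daunorubicin, and so did CDC45, with -2.37 and -2.81. Both genes were dim there, and with 16 added to each signal the difference of GINS2 was -2.21 with Nutlin and -2.16 with daunorubicin, while that of CDC45 was -0.16, which did not pass, and -0.54. With the mean of all probe sets that of GINS2 was -0.49 with Nutlin and 0.23 with daunorubicin. GINS3 lost less than the rest, with a difference of 2.96 with Nutlin and 2.57 with daunorubicin, and so did GINS4, with 2.21 and 2.33. GINS4 was dim there too, and with 16 added to each signal its differences were 1.51 and 1.61. Those of GINS3, which was set against a mean that includes the dim genes, were then 1.60 and 1.56. GINS1 stood at 0.91 and 0.75, and its direction turned to -0.74 and -0.47 when 16 was added to each signal. With MLN4924, GINS2 lay below the rest in GL2 cells (-0.73) and in p53 siRNA cells (-0.45), and GINS3 lay above the rest in p53 siRNA cells (0.72). Since probe sets differ in how they respond to their target, these are differences in signal.

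Many other genes of the helicase and the fork fell in GL2 cells, where 10.8% of all genes were called lower with Nutlin and 11.4% with daunorubicin. All of MCM2 to MCM7, the ring itself, fell with Nutlin (median -3.21) and with daunorubicin (median -3.12), the largest fall being that of MCM6 (-3.70 with Nutlin and -3.85 with daunorubicin). Of 13 genes that activate the helicase, 11 fell with each drug, among them MCM10 (-4.90 with Nutlin, -4.25 with daunorubicin), which acts as CDC45 and GINS begin to unwind DNA, and TOPBP1 (-1.87 and -1.51), which helps bring them to the origin. Of 28 fork partners, 24 fell and 1 rose with each drug, with DSCC1, a part of an alternative clamp loader, at -3.55 with Nutlin and -3.86 with daunorubicin. Of 9 origin licensing genes, 6 fell with each, among them CDC6 (-3.91 with Nutlin, -3.54 with daunorubicin), which loads the MCM ring. Of 12 genes for helicase disassembly at the end of replication, which use CUL2 with LRR1 and the VCP segregase, 4 fell with Nutlin and 3 with daunorubicin (median -0.17 and -0.41), TRAIP (-3.04 and -3.18) and LRR1 (-2.36 and -2.27) the most. All 20 mitosis genes fell with both drugs, with medians of -4.67 with Nutlin and -4.16 with daunorubicin, beside 0.02 and 0.00 over all genes.

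Among 26 genes of E2F, RB and DREAM control, 14 fell and 1 rose with each drug in GL2 cells. The one that rose was CDKN1A, by 3.26 with Nutlin and by 2.76 with daunorubicin, and those that fell included MYBL2 (-5.14 with Nutlin and -3.46 with daunorubicin) and the cyclin gene CCNE2 (-5.03 and -4.21). In p53 siRNA cells with Nutlin, only 1.15% of all genes were called in either direction. None of the MCM, activation, fork, licensing, disassembly or mitosis genes was called there, which is close to that share. With daunorubicin, where 7.38% of all genes were called lower and 6.52% higher, 16 of 20 mitosis genes fell in p53 siRNA cells (median -1.04), while of the MCM genes MCM6 alone fell (-0.75) and of 9 licensing genes CDT1 (1.19) and ORC6 (0.60) rose. Without the doubted libraries 18 mitosis genes and 1 MCM gene fell there, and 1 licensing gene rose.

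With MLN4924 in GL2 cells, where 7.06% of all genes were called lower, 4 of 6 MCM genes, 2 of 13 activation genes, 5 of 28 fork genes and 20 of 20 mitosis genes fell, the last with a median of -1.72. Without the doubted libraries, 2 MCM, 2 activation, 3 fork and 18 mitosis genes fell and 2 activation genes rose. In p53 siRNA cells MLN4924 raised 4 MCM, 8 activation, 17 fork and 5 licensing genes, among them CDC6 (1.89), ORC1 (1.50) and TIPIN (1.64), a fork protection gene, while 7 mitosis genes fell and 2 rose, beside 17.8% of all genes called higher and 7.60% called lower. As deposited, without centring, the numbers that rose were 2, 2, 6 and 4. Under BRCA1 siRNA all 6 MCM genes fell (median -1.01), with 12 of 28 fork genes and 17 of 20 mitosis genes (median -0.77), beside 4.37% of all genes, and CDKN1A rose by 1.86. Under CDT1 siRNA 2 MCM genes, 2 fork genes and 3 mitosis genes fell, beside 3.58% of all genes, and CDKN1A rose by 1.41.

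**Figure D3:**
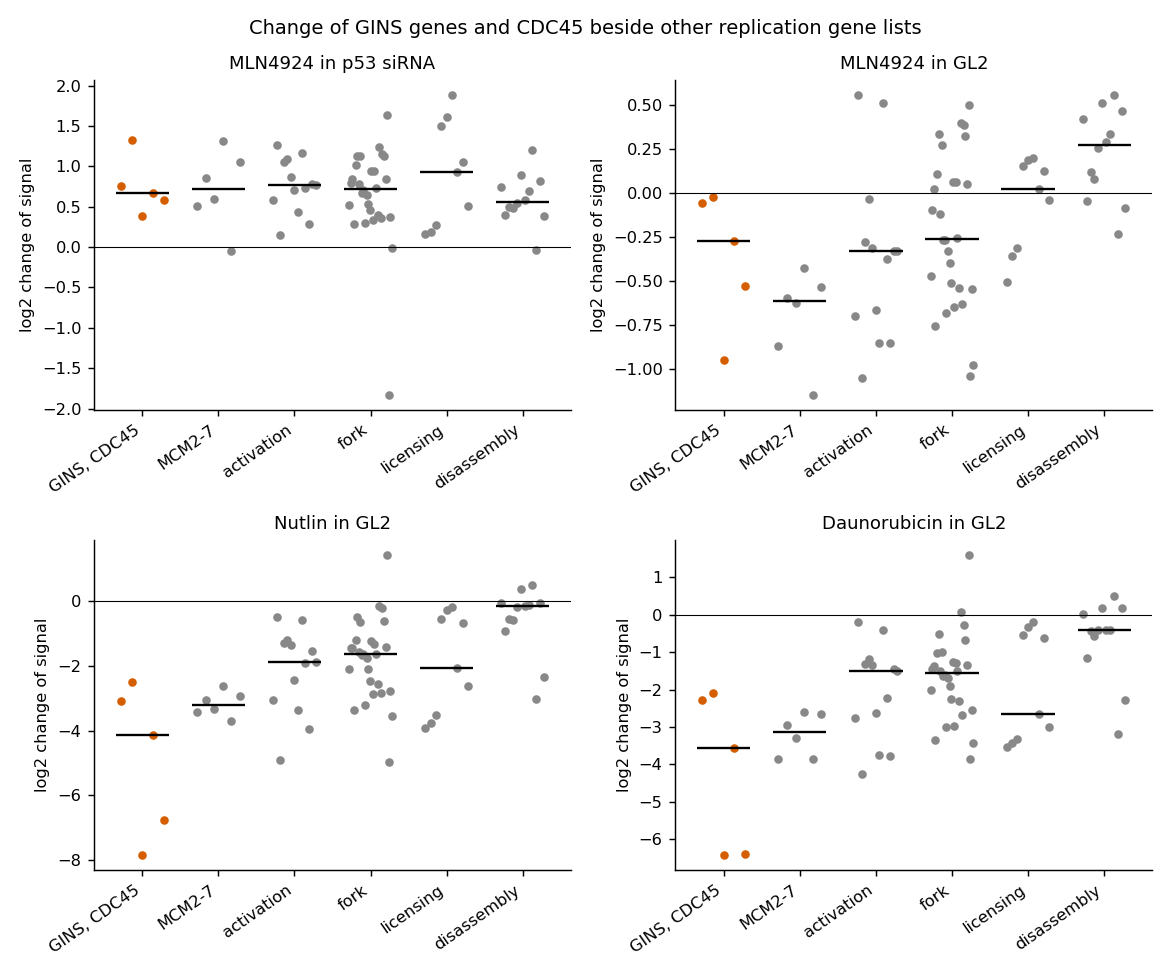
Change (log2) of the 5 genes and of 5 lists of replication genes under 4 treatments relative to DMSO of the same siRNA, with 1 point per gene and a bar at the list's median, each panel on its own scale. GINS2 and CDC45 lie below every other gene shown under Nutlin and daunorubicin in GL2 cells, and nearly all genes lie above 0 under MLN4924 in p53 siRNA cells.

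Over the 14 group means the 5 genes followed each other with Pearson correlations from 0.86 (GINS3 with GINS4) to 0.98 (GINS2 with CDC45). Much of this rested on the GL2 Nutlin and daunorubicin groups. Over the other 12 groups the correlations ran from 0.34 (GINS1 with GINS4) to 0.83 (GINS1 with GINS2), and those of GINS4 with the rest were at most 0.60. Among 12387 genes with a mean signal at or above the median, the 3 most like GINS1 were ASF1B, MCM10 and VASH2 (0.99 each), those most like GINS2 were ZWINT, CENPM and CENPK, and those most like GINS3 were POLD3, TOPBP1 and ZNF826P. For GINS4 they were API5, RFC2 and H2AZ1, with API5 at 0.98 and at 0.89 without the doubted libraries. For CDC45 they were CHAF1B, CENPM and GINS2. Many groups share an siRNA or an agent, so these correlations only describe the libraries.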

How the data were processed

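RNA of A375 cells was measured on 42 Affymetrix arrays, 1 per sample. The deposited values are signal intensity, not logged, for 54675 probe sets. Per the submitters' processing notes they come from Affymetrix Expression Console, of a version not given in the sources used here. In the deposited values each array's mean, after trimming 2% at both ends, was 150.0. Here 147 intensities of 0 were set to 0.1, log2 was taken, each of 19775 genes was read from its single-symbol probe set with the highest mean (41091 probe sets have 1 symbol, 1801 several and 11721 none, and 62 are controls), and arrays were centred to a common median gene (5.63 to 6.35 before centring). The test was that of limma 3.58.1 (R 4.3.3), with 1 fit of 14 groups, 28 residual degrees of freedom and 23 contrasts, and Benjamini-Hochberg adjustment over all genes. Correlations and exact tests used Python 3.11.15, pandas 2.3.3 and scipy 1.17.1. The number of arrays limits the precision, and no scan date or slide was given.

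The 5 genes, the lists and the alternatives were chosen with earlier results of these data known. Named were the 5 genes, CDT1, BRCA1 and CDKN1A as checks, at most 4 genes per list with the largest moderated statistic in a comparison, and the 3 genes most like each of the 5. The other probe sets and the ranks with 16 added were added after the values had been seen. The fit was tested on simulated data, with changes put into the Nutlin group of GL2 cells. It called 25.4% of the 1.5-fold, 65.7% of the 2-fold and 80.3% of the 4-fold changes, with 2 false calls among 19575 unchanged genes. A gene that was not called may thus still have changed.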

Additional observations from a re-analysis of the deposited data

Results flagged for a closer look

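For each gene, the change under an agent in p53 siRNA cells was set against its change in GL2 cells, and the results given here are those where the difference of the 2 changes (log2, p53 siRNA less GL2) passed limma's test with at least 1.5-fold. Under Nutlin it was 3.91 for GINS1, 7.57 for GINS2, 2.47 for GINS3, 2.42 for GINS4 and 6.70 for CDC45. Under daunorubicin it was 3.68 for GINS1, 6.10 for GINS2, 3.07 for GINS3, 1.85 for GINS4 and 6.54 for CDC45. Under MLN4924 it was 1.11 for GINS1, 1.34 for GINS2, 1.38 for GINS3 and 0.94 for CDC45. The 3 agents share the DMSO arrays of each siRNA, so these differences are not independent of each other. The library of p53 siRNA with daunorubicin, replicate 1, had a low 5' to 3' ratio, and the library labelled GL2 MLN4924 replicate 3 went against its label. Without the doubted libraries all 5 differences under Nutlin and all 5 under daunorubicin were still called, and of those under MLN4924 that of CDC45 was not (0.53). Without GL2 MLN4924 replicate 3 alone that of GINS2 (1.07) was not called either. The sizes for GINS2, CDC45 and GINS4 under Nutlin and daunorubicin rest on dim signals in GL2 cells. With 16 added to each signal they were 4.84, 3.39 and 1.54 under Nutlin and 4.44, 3.56 and 1.38 under daunorubicin.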

How the results depend on the processing

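Leaving aside single other probe sets, some of which turned (given last), all 5 genes were called under Nutlin and under daunorubicin in GL2 cells in each alternative run, and likewise for the differences of these changes between p53 siRNA and GL2 cells and for MLN4924 against either drug in GL2 cells. The count stayed at 0 in each alternative run for MLN4924 in CDT1 and BRCA1 siRNA cells, their differences from GL2 cells, p53 siRNA under DMSO and both comparisons of DMSO sets. The counts below moved. Replicate numbers were shared between groups, but no pair of groups had every same-number correlation above 0.1, so they were not treated as pairs. A replicate block over all groups moved no count by this measure, while a replicate block within control sets gave 0 called genes for MLN4924 in GL2 cells (1 in the report), daunorubicin in p53 siRNA cells (1), CDT1 siRNA (1), BRCA1 siRNA (3), Nutlin less daunorubicin in GL2 cells (1) and MLN4924 less daunorubicin in p53 siRNA cells (1). With only the groups compared in the fit, the count was 0 for daunorubicin in p53 siRNA cells, for Nutlin less daunorubicin and for MLN4924 less daunorubicin in p53 siRNA cells.

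Against the first DMSO set alone BRCA1 siRNA had 1 call, and against the second set MLN4924 had 2 in GL2 cells and 1 in p53 siRNA cells, and Nutlin 1 in p53 siRNA cells. As deposited, MLN4924 had 2 calls in GL2 cells and 1 in p53 siRNA cells, Nutlin less daunorubicin 2, MLN4924 less Nutlin in p53 siRNA cells 2 (4 in the report) and MLN4924 less daunorubicin in p53 siRNA cells 0. After quantile normalization these were 2, 1, 2 and 2 for the first 4, and 2 (4 in the report) for the difference of MLN4924 changes between p53 siRNA and GL2 cells. MLN4924 less daunorubicin in p53 siRNA cells had 0 calls with the mean of all probe sets, 2 with 16 added to each signal, 2 without dim genes, 4 with array weights and 4 without the doubted libraries. Nutlin less daunorubicin had 0 with 16 added, 3 with array weights and 3 without the doubted libraries, and Nutlin in p53 siRNA cells had 1 with array weights and 1 without the doubted libraries. With a minimum of 2-fold the counts were 0 for MLN4924 in GL2 cells, 1 in p53 siRNA cells, 0 for daunorubicin in p53 siRNA cells, 0 for CDT1 siRNA, 1 for BRCA1 siRNA and 2 for MLN4924 less Nutlin in p53 siRNA cells. MLN4924 in GL2 cells had 2 calls with no fold minimum and 0 without the doubted libraries.

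With each of 42 arrays left out in turn, the count was 0 to 2 for MLN4924 in GL2 cells, 2 to 4 in p53 siRNA cells, 0 to 1 for Nutlin and 1 to 2 for daunorubicin in p53 siRNA cells, 2 to 4 for BRCA1 siRNA, 0 to 3 for Nutlin less daunorubicin, 4 to 5 for MLN4924 less Nutlin and 1 to 4 for MLN4924 less daunorubicin in p53 siRNA cells, and 2 to 4 for the difference of MLN4924 changes. For unequal change it was 0 to 12 (13 in the report), with 0 wherever a GL2 Nutlin, daunorubicin or DMSO array was left out, since the smallest exact p of the fewer arrays then misses the threshold, and 11 or 12 otherwise.

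Some directions turned. The unequal change of GINS1 was -0.74 under Nutlin and -0.47 under daunorubicin with 16 added, and -0.53 and -0.40 with the mean of all probe sets, where that of GINS2 under daunorubicin was 0.23. Probe set 1557595_at of GINS2 gave 0.24 for daunorubicin in GL2 cells, -0.69 for MLN4924 less daunorubicin there and -0.24 for the difference of daunorubicin changes. The dim probe set 240778_at of GINS4 gave -0.89 for MLN4924 less Nutlin in GL2 cells, -0.22 for MLN4924 less daunorubicin there and -0.18 for MLN4924 less Nutlin in p53 siRNA cells. Of changes that were not called, GINS3, GINS4 and CDC45 with MLN4924 in GL2 cells turned without replicate 3, GINS1 with daunorubicin in p53 siRNA cells without replicate 1, and GINS1 and CDC45 with MLN4924 in BRCA1 siRNA cells without replicate 3. The cause was not tested.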
